A study of Mus musculus with 16 samples.

Results

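The dependence of the evacetrapib effect on genotype was read as a difference of differences in brain RNA. For each gene, the log2 fold change of evacetrapib over vehicle in CETPtg mice (mice A to D against S1 to S4) was subtracted from the same fold change in APPtg/CETPtg mice (mice E to H against S5 to S8), with 1 mean for each of the 4 groups. The comparison is defined by genotype and treatment alone, and 16 of the 16 mice of the series entered it. A negative difference means that a gene was lower with evacetrapib in APPtg/CETPtg mice, relative to its response in CETPtg mice. The question was which gene classes responded in opposite directions in the 2 genotypes.

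The study asked whether blocking the cholesteryl ester transfer protein (CETP) protects memory in a mouse model of amyloid deposition. The mice were female, of a background labelled C57/bl6 (C57BL/6J in the methods), and from 11 weeks of age ate a diet with 1% cholesterol, also in the vehicle groups. CETPtg mice carried human CETP under its own promoter, a gene that mice lack. APPtg/CETPtg mice carried in addition the McGill-APP-Thy1 transgene, human APP with the Swedish and Indiana mutations, which the Thy1 promoter drives in neurons. Evacetrapib, a small-molecule CETP inhibitor, was given daily into the peritoneum at 30 mg/kg for 11 weeks, and the vehicle groups received the carrier without it. Both transgenes were heterozygous, and each mouse was a replicate of its own (n = 4 per group). The methods describe both perfused mice and mice that were not perfused, and which kind was sequenced is not stated, so blood may remain in the tissue. The sequenced series has no group without the CETP transgene and none with APP alone, so in it an effect of evacetrapib that does not pass through CETP cannot be told apart from CETP inhibition.

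Poly(A) RNA from bulk brain was sequenced, and the deposited values are reads counted per gene. The methods describe cerebrum frozen in quadrants for mice that were not perfused, but the part of the brain each library holds and the hour of day of collection are not stated, and RNA integrity is given in the methods only as a range over the samples, which limits the reading of regional, clock, glucocorticoid and immediate early genes. Sequencing depth ran from 28626139 to 46800787 counts per mouse in the CETPtg groups and from 21391335 to 25854334 in APPtg/CETPtg mice with evacetrapib. With vehicle, APPtg/CETPtg mice S5 to S8 had 21866883, 22587182, 27398792 and 55453789 counts, so mouse S8 was sequenced far deeper than the rest of its group. Levels are given as CPM, the counts of a gene relative to the library's total after TMM scaling. Thy1, a glycoprotein of the neuronal surface whose promoter drives the APP transgene, had 2064, 1420, 886 and 974 CPM in mice S5 to S8 and 1000, 1818, 865 and 1040 in mice E to H. It had 701, 706, 707 and 729.8 CPM in mice S1 to S4 and 807, 783, 753 and 684 in mice A to D. All 8 APPtg/CETPtg mice lay above all 8 CETPtg mice as labelled, but S5, S6 and F stood far above the other APPtg/CETPtg mice. On the index plate of the libraries, the genotypes lay in different columns and the treatments in different rows, so neither can be told apart from its plate position, while each row holds 1 mouse of each genotype.

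CETP moves cholesteryl esters and triglycerides between lipoprotein particles in plasma, and its inhibition leaves more cholesterol in high-density lipoproteins. In the brain, which makes its own cholesterol, neurons answer synaptic activity within minutes by transcribing immediate early genes, such as the Fos, Egr and Npas4 families, which then switch on effector genes. APP overexpression has been linked in other mouse lines to altered neuronal excitability, to plaque-associated glia and to interferon responses. Bulk tissue mixes all of these cells: fewer cells of a type and less RNA per cell cannot be told apart in it.

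Of 18609 genes that reached 10 counts in 4 or more mice, 0 (0.0%) differed between the genotypes in their response, with calls made at an adjusted p up to 0.05 and a change of 5% or more (edgeR quasi-likelihood, Benjamini-Hochberg). At an unadjusted p below 0.05, 591 genes (3.18%) had a lower and 680 (3.65%) a higher response in APPtg/CETPtg mice. The same test called 0 genes (0.0%) within CETPtg mice, with 1079 at an unadjusted p below 0.05, and 8 genes (0.043%) within APPtg/CETPtg mice, with 1677. The genes that fell in APPtg/CETPtg mice were Arl4d, Npas4, Junb, Ccn1, Egr4, Gadd45g, Gm19439 and Herpud1. For the difference itself, the Wald test of DESeq2 called 2 genes (1188 at an unadjusted p below 0.05), Arl4d and Ccn1, and limma-voom called 0 (1345). Leaving out mouse S2 gave 1 gene, Arl4d. Without the filter on low counts edgeR called 29 genes, 10 of them in the list of immediate early genes described below. The adjusted p values of that edgeR fit (quasi-likelihood, Benjamini-Hochberg) were 1.08e-05 for Junb (log2 difference -1.18), 1.08e-05 for Npas4 (-1.55), 0.000157 for Egr4 (-0.99), 1.34e-05 for Arl4d (-0.94) and 0.000292 for Ccn1 (-1.51). The split into 591 lower and 680 higher moved with the scaling, to 378 and 977 with total counts alone, to 440 and 853 with the upper quartile and to 841 and 574 with each mouse's trend of counts on GC content and transcript length removed.

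The count of genes called within APPtg/CETPtg mice rested on single mice. It was 0 without G (with 1332 genes at an unadjusted p below 0.05), 3 without S7, 4 without F, S2 or S4, 5 without H or S5 and 14 without S8. DESeq2 called 73 genes there, and limma-voom 7.

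Across all genes, the responses of the 2 genotypes showed next to no correlation. Of the genes tested, 9284 (49.9%) had opposite signs in the genotypes, and the difference was below 0 for 9365 (50.3%). The correlation across genes of the log2 fold changes was 0.0069 by Pearson and 0.0072 by Spearman, where genes are not independent replicates. An unadjusted p below 0.05 in both genotypes was found for 34 genes with opposite signs (0.183%) and for 119 genes with the same sign (0.639%). By the values of single mice, 9 genes (0.0484%) had groups that did not overlap in either genotype and separated in opposite directions, and 26 genes (0.14%) separated in the same direction in both. Genes that moved together in the 2 genotypes were thus more frequent than genes that crossed, and the classes in opposite directions were read from gene lists. How far apart these counts at an unadjusted p below 0.05 lay rested on single mice. Same and opposite signs were found for 105 and 86 genes without D, 120 and 64 without F, and 77 and 18 without S2.

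The responses of 57 gene lists, of brain cell types, regions, pathways and gene families, were described by the median log2 fold change of their members in each genotype, with no test. Counts of members are to be read against the shares of all genes tested, given at their first use. Over all genes tested, these medians were -0.0024 in CETPtg mice, -0.0011 in APPtg/CETPtg mice and -0.0011 for the difference. Of the 56 lists with at least 5 members tested, 16 had a positive median in CETPtg and a negative one in APPtg/CETPtg mice, 16 had the reverse, and 24 had the same sign in both. The opposite signs of 9 lists that were lower in APPtg/CETPtg mice held under 6 other scalings or weightings and with each of the 16 mice left out in turn. These lists were immediate early genes, heat shock proteins, cholesterol synthesis, pan-neuronal markers, cortical excitatory neurons, transcripts of the mitochondrial genome, nuclear-encoded respiratory chain subunits, and the proteins of cytosolic and of mitochondrial ribosomes. In the other direction they held for 7 lists, those of astrocytes, homeostatic microglia, hypothalamic neuropeptides, the olfactory bulb, interneurons, ionotropic glutamate receptors, and lipoproteins with cholesterol efflux. The signs of list medians do not hold for each gene: opposite signs were found for 7 of 20 astrocyte, 7 of 15 hypothalamic, 12 of 25 lipoprotein and efflux and 10 of 19 cortical genes, shares near or under the 49.9% of all genes tested. The size of a difference was less stable than the signs: for astrocytes it went from 0.06 to -0.01 without S5, while the medians within each genotype kept their signs, and the difference lay between 0.03 and 0.10 without A, B, G, S2, S6 or S8. Outside the markers of brain regions, most of these medians were within 0.2 of 0, and the immediate early genes stood apart by size.

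**Figure D1:**
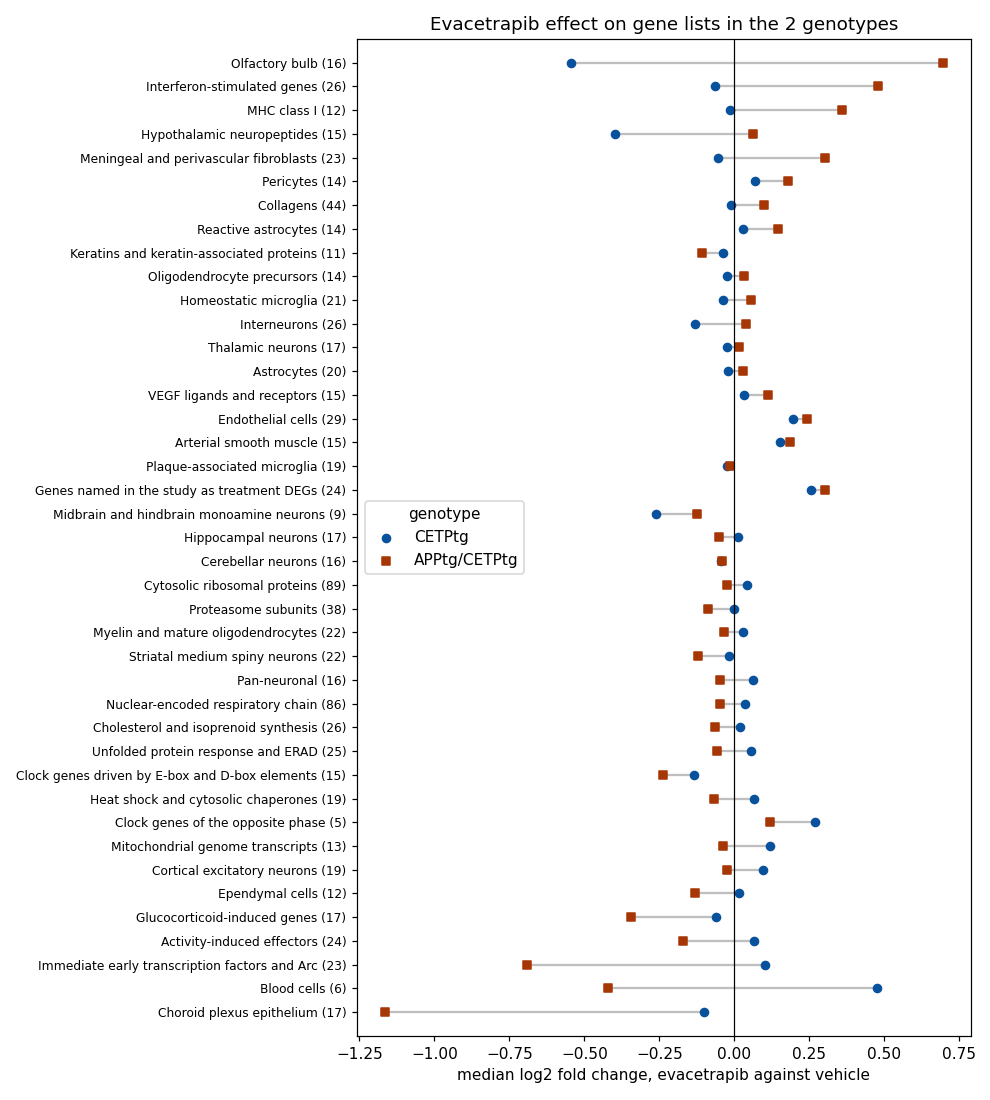
Median log2 fold change of evacetrapib against vehicle over the tested members of gene lists (number of members in brackets), in CETPtg mice (circles) and APPtg/CETPtg mice (squares), ordered by the difference, with a grey line between the 2 medians of a list. Immediate early genes lie at 0.10 and -0.69, while endothelial and smooth muscle markers lie to the right of 0 in both genotypes.

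Outside the markers of blood, choroid plexus and brain regions, immediate early genes gave the widest difference between the genotypes. The list held 23 tested immediate early genes, mostly transcription factors. It also held Arc, which encodes a protein of dendritic spines, the phosphatase gene Dusp1, and Btg2, Ier2 and Ier5. Which cells gave these values, neurons or others, cannot be told from bulk tissue. Its median log2 fold change was 0.10 (CETPtg) and -0.69 (APPtg/CETPtg), and the median difference was -0.83. The response was lower in APPtg/CETPtg mice for 23 of the 23 genes, 21 had opposite signs in the genotypes, and 16 had an unadjusted p below 0.05 for the difference (49.9% and 3.18% of all genes tested). Evacetrapib-treated APPtg/CETPtg mice lay below all vehicle-treated ones for 11 genes, which holds for 432 of the genes tested (2.32%), and above them for 0 (1.97% of the genes tested). In CETPtg mice the groups overlapped for all but 1 gene, Atf3, which was higher with evacetrapib (2.1% of the genes tested were, and 1.82% were lower without overlap). The median difference lay between -0.95 and -0.70 with 1 mouse left out and between -0.85 and -0.80 under the other scalings.

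The vehicle-treated APPtg/CETPtg mice were the group that stood apart. Averaged over the list and centred on the 16 mice, the log2 level was 0.24, 0.52, 0.66 and 0.32 in mice S5 to S8, and -0.07, -0.65, -0.23 and 0.09 in mice E to H. It was -0.43, -0.14, -0.09 and -0.09 in mice S1 to S4 and -0.04, -0.15, 0.12 and -0.07 in mice A to D. All 4 vehicle-treated APPtg/CETPtg mice were above the 12 others, mouse F was the lowest, and evacetrapib-treated mice of the 2 genotypes overlapped. Gene by gene, vehicle-treated APPtg/CETPtg mice lay above all vehicle-treated CETPtg mice for 12 of the 23 genes (9.61% of all genes tested) and above all 12 other mice for 6 (0.494%). With evacetrapib, APPtg/CETPtg mice lay below all CETPtg mice for 1 gene, Npas4 (5.16%), and above them for 1, Jun (5.6%). The opposite signs therefore came with a high vehicle group in 1 genotype, and in CETPtg mice the list moved little.

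Junb (ENSMUSG00000052837, chr8:84974484-84978718 of GRCm38), a subunit of the AP-1 transcription factor, had 104, 99.4, 124 and 97.1 CPM in mice S5 to S8 and 51.5, 33.3, 52.4 and 66.7 in mice E to H. In CETPtg mice it had 55.0, 72.0, 61.6 and 65.2 CPM with vehicle and 65.5, 72.2, 83.0 and 51.9 with evacetrapib. Every vehicle-treated APPtg/CETPtg mouse was above the 12 other mice, and the CETPtg groups overlapped. Its log2 fold changes were 0.10 (CETPtg) and -1.06 (APPtg/CETPtg), and the difference of -1.16 (standard error 0.22) had an adjusted p of 0.263 (edgeR quasi-likelihood, Benjamini-Hochberg). Npas4 (ENSMUSG00000045903, chr19:4984355-4990316), a neuronal transcription factor induced by calcium entry, had 23.9, 27.7, 26.1 and 31.5 CPM in mice S5 to S8 and 11.97, 6.33, 10.7 and 11.4 in mice E to H. In CETPtg mice it had 15.9, 20.8, 11.5 and 24.6 CPM with vehicle and 23.8, 14.3, 19.2 and 19.7 with evacetrapib, groups that overlapped. Mice E to H were the 4 lowest of the series except for an overlap with S3, and mouse F was lowest. The difference of -1.53 (standard error 0.29) had an adjusted p of 0.263 in the same edgeR test.

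Egr4 (ENSMUSG00000071341, chr6:85511121-85513589), a zinc finger transcription factor of the early growth response family, had 47.6, 72.2, 62.9 and 47.5 CPM in mice S5 to S8 and 28.9, 22.9, 32.2 and 36.0 in mice E to H, without overlap. In CETPtg mice it had 29.6, 35.9, 42.1 and 33.8 CPM with vehicle and 31.7, 33.2, 42.0 and 38.4 with evacetrapib, and the groups overlapped. The difference was -0.98 (standard error 0.20, adjusted p 0.470, the same edgeR test). Among the other members, Fos, the partner of Jun proteins in AP-1, had 36.1, 42.4, 50.03 and 33.1 CPM in mice S5 to S8 against 21.7, 5.40, 12.8 and 20.6 in mice E to H, and Arc 227, 205, 293 and 214 against 132, 50.7, 94.4 and 196. Both were separate in APPtg/CETPtg mice and overlapped in CETPtg mice, where Fos had 12.1 to 26.1 CPM with vehicle and 17.4 to 28.3 with evacetrapib. Jun, Jund, Nr4a2, Nr4a3 and Fosl2, in the same list, had differences between -0.25 and -0.06, each with an unadjusted p above 0.05 in the edgeR test, so the response was not shared evenly by the whole list. These members, Arc above and Atf3 were picked with their values known. The row of the index plate, which 1 mouse of each genotype shares, was added as a block after seeing the data, and 2 genes then passed for the difference, Npas4 (adjusted p 0.00637) and Egr4 (adjusted p 0.0234), by the same edgeR test. Under that block the adjusted p of Arl4d, Junb and Ccn1 was 0.458, 0.603 and 0.686 (the same edgeR test), with differences of -0.94, -1.18 and -1.47. Mice of the same row correlated no more (median 0.013) than other pairs of different groups (median 0.015).

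**Figure D2:**
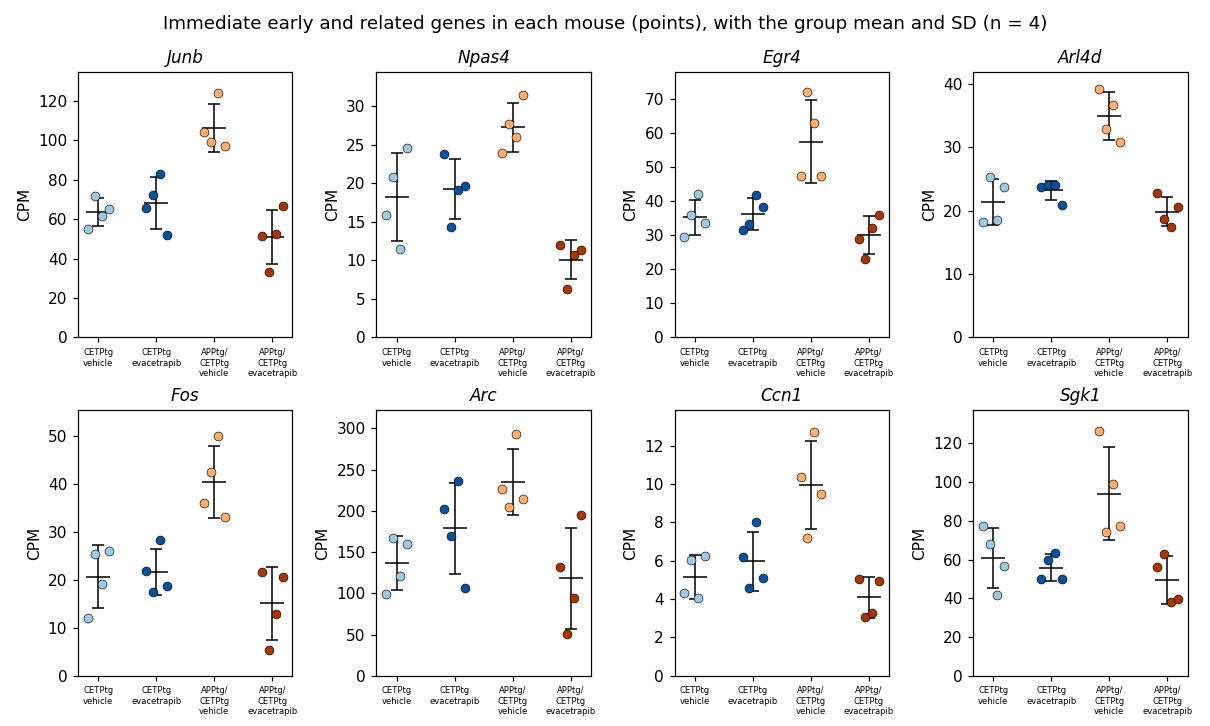
CPM of 8 genes in each of the 16 mice (points), with the mean and SD of each group (n = 4). In each panel the vehicle-treated APPtg/CETPtg mice are the highest group, and for Arl4d they lie between 30.9 and 39.3 CPM, above all 12 other mice.

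Outside that list, the smallest p of all genes for the difference belonged to Arl4d (ENSMUSG00000034936, chr11:101665541-101667832), a small GTPase of the ARF-like family at the plasma membrane. It had 39.3, 32.9, 36.8 and 30.9 CPM in mice S5 to S8 and 22.8, 18.8, 17.4 and 20.5 in mice E to H. It had 18.2, 25.3, 18.5 and 23.8 CPM in mice S1 to S4 and 23.8, 24.1, 24.1 and 20.97 in mice A to D. Vehicle-treated APPtg/CETPtg mice lay above all 12 others, and the 3 other groups overlapped. The difference was -0.93 (standard error 0.15, adjusted p 0.127, edgeR quasi-likelihood, Benjamini-Hochberg), from 0.12 (CETPtg) and -0.81 (APPtg/CETPtg). DESeq2's adjusted p was 4.98e-05, limma-voom's was 0.152, edgeR's without the filter on low counts was 1.34e-05, and edgeR's with it lay between 0.0352 (without S2) and 0.539 with 1 mouse left out. Ccn1 (ENSMUSG00000028195, chr3:145646976-145649981), a secreted protein of the extracellular matrix, had 10.4, 7.17, 12.7 and 9.50 CPM in mice S5 to S8 and 5.06, 3.08, 3.27 and 4.97 in mice E to H, without overlap, and 4.07 to 6.24 with vehicle and 4.56 to 8.05 with evacetrapib in CETPtg mice. Its difference of -1.49 (standard error 0.30) had an adjusted p of 0.366 by edgeR and of 0.00241 by DESeq2.

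Promoters of the immediate early genes were read to describe the list, in which the difference was negative for each of the 23 genes. Its size was uneven: 16 had an unadjusted p below 0.05, and the smallest adjusted p was 0.263 (edgeR quasi-likelihood, Benjamini-Hochberg). RefSeq windows of 250 bases before the start (GRCm38.p6) matched 19 of the 23 symbols. The letters TGACG, the core of the cAMP response element bound by CREB, were searched on both strands, where they read CGTCA on the reverse. They were found for 15 of these symbols (78.9%), against 28.2% of the tested symbols with a window and 19.8% of all 27025 symbols with one. A symbol with more than 1 window counted once, by any of them. The full element TGACGTCA, which contains the shorter letters, was found for 3 symbols (15.8%, against 2.85% and 1.77%). The CArG box bound by serum response factor was found for 1 (5.26%, against 1.41% and 1.62%). Of the activity-induced effectors, 10 of 17 symbols with a window held TGACG (58.8%). A match describes letters and not binding. These shares are a property of the genes listed, whatever their response to evacetrapib. The windows compared were not matched for base composition, and the part of CREB in the difference was not tested. The RefSeq starts of Junb and Npas4 differ from the ends of their GENCODE spans given above, and the Npas4 window lies inside its GENCODE span. The windows of 3 of these genes and of Arl4d are shown 5′ to 3′ on the strand of the gene, with these letters in capitals: Junb (chr8:84978749-84978998, minus strand), Npas4 (chr19:4989972-4990221, minus strand), Egr4 (chr6:85513590-85513839, minus strand) and Arl4d (chr11:101665291-101665540, plus strand).
Junb: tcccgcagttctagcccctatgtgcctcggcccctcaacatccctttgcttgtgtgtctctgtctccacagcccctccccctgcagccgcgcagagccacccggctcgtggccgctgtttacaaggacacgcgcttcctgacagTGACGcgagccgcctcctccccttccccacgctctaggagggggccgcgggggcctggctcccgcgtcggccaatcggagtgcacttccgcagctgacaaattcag
Npas4: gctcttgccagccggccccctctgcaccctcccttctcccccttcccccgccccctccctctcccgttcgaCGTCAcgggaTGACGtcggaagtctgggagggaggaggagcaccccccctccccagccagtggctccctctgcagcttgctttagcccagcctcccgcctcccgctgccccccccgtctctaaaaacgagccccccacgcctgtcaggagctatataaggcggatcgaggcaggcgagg
Egr4: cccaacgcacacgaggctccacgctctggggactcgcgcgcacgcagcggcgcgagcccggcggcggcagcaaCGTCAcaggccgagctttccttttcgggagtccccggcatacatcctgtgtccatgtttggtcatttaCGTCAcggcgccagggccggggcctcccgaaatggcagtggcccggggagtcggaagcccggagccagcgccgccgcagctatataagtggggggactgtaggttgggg
Arl4d: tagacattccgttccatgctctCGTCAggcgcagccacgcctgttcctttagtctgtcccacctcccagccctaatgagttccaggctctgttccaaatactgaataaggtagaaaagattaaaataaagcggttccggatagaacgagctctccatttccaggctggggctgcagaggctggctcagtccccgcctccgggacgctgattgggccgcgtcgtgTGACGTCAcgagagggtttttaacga

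The effector genes that act after the immediate early genes had medians of the same signs, with a smaller difference, and these signs rested on mouse S6. Over 24 tested activity-induced effectors, the median was 0.06 (CETPtg) and -0.17 (APPtg/CETPtg), and the difference was negative for 22 of them with a median of -0.25. An unadjusted p below 0.05 for the difference was found for 5, all lower (3.18% of all genes tested). The smallest adjusted p was 0.703 (edgeR quasi-likelihood, Benjamini-Hochberg). Mouse S6 had the highest level of this list, 0.50, against 0.14 in the next highest, S7, and without S6 the median difference was -0.08 and the signs no longer differed, while it was -0.13 without F and -0.17 without S7. Gadd45g (ENSMUSG00000021453, chr13:51846678-51848468), a stress sensor that binds cell cycle kinases, had 16.1, 23.7, 14.8 and 17.8 CPM in mice S5 to S8 and 13.02, 8.28, 9.27 and 10.8 in mice E to H, and 10.4 to 12.4 with vehicle and 10.5 to 11.6 with evacetrapib in CETPtg mice. It fell in APPtg/CETPtg mice, with a log2 fold change of -0.80 (adjusted p 0.0282, edgeR quasi-likelihood, Benjamini-Hochberg) against -0.06 in the other genotype, and the difference had an adjusted p of 0.703 in that test. Nptx2, a secreted synaptic protein chosen after its values were seen, shows how far S6 stood out: it had 48.7, 289.6, 59.2 and 68.5 CPM in mice S5 to S8 and 68.6 to 90.6 in mice E to H.

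Genes induced by glucocorticoids, the stress hormones of the adrenal cortex, were lower with evacetrapib in both genotypes by their medians, and more so in APPtg/CETPtg mice. The median log2 fold change of 17 genes was -0.06 (CETPtg) and -0.34 (APPtg/CETPtg), the difference was negative for 14 of them with a median of -0.22 (-0.34 without F), and 6 had opposite signs. The level of the list was 0.33, 0.26, 0.32 and -0.01 in mice S5 to S8, and -0.21 to 0.08 in mice E to H. In CETPtg mice it was -0.19 to 0.04 with vehicle and -0.21 to 0.05 with evacetrapib. Mice S5, S6 and S7 were the 3 highest of the 16, and S8 lay within the other groups. Sgk1, a kinase induced by these hormones, had 126, 74.0, 98.8 and 77.1 CPM in mice S5 to S8 and 56.4, 63.1, 38.1 and 39.5 in mice E to H, without overlap. Its log2 fold changes were -0.13 (CETPtg) and -0.93 (APPtg/CETPtg), and the difference had an adjusted p of 0.703 (edgeR quasi-likelihood, Benjamini-Hochberg). Tsc22d3, which encodes the leucine zipper protein GILZ, had log2 fold changes of 0.01 and -0.48.

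Of the lists on chaperones and protein quality control, only heat shock proteins and cytosolic chaperones kept small opposite medians under all scalings and with each mouse left out. Over 19 heat shock proteins and cytosolic chaperones, the median was 0.06 (CETPtg) and -0.07 (APPtg/CETPtg), the difference was negative for 19 of 19 genes, and 6 had an unadjusted p below 0.05 (3.18% of all genes were lower at that level). Mouse S6 was the highest of the 16 with a level of 0.24, and without it the median difference went from -0.13 to -0.05. Hspa1b, an inducible chaperone of the Hsp70 family that shares most of its sequence with Hspa1a, so that reads of either may be lost or mixed, had 8.68, 8.77, 6.91 and 7.93 CPM in mice S1 to S4 and 9.73, 10.4, 9.51 and 10.7 in mice A to D. It had 9.84, 17.9, 11.0 and 8.35 CPM in mice S5 to S8 and 8.42, 9.58, 11.3 and 9.14 in mice E to H. It was higher with evacetrapib without overlap in CETPtg mice, whereas the APPtg/CETPtg groups overlapped and S6 was the highest.

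The 25 genes of the unfolded protein response and of ER-associated degradation had medians of 0.06 (CETPtg) and -0.06 (APPtg/CETPtg), which no longer had opposite signs without S6. Among them, Herpud1 (ENSMUSG00000031770, chr8:94386438-94395377), an ER membrane protein of this degradation route, had 59.8, 61.5, 60.8 and 54.8 CPM in mice S5 to S8 and 51.0, 46.6, 47.6 and 48.5 in mice E to H, without overlap. In CETPtg mice it was also lower with evacetrapib without overlap, so it was not among the opposed genes. The 38 subunits of the proteasome, which degrades tagged proteins, had a median of -0.09 in APPtg/CETPtg and of 0.0003 in CETPtg mice. Their median in CETPtg mice turned negative with total counts alone, with the upper quartile and with counts thinned to the smallest total. The signs were also no longer opposite without A. Of the 38 subunits, 11 were lower without overlap in APPtg/CETPtg mice (2.32% of all genes tested). The level of the list was 0.01, 0.18, 0.00 and 0.04 in mice S5 to S8 and 0.05, 0.01, 0.05 and -0.01 in mice E to H, so the groups overlapped and S6 alone stood above the evacetrapib group.

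Genes of energy metabolism and translation also had small differences, most of them negative. All 13 transcripts of the mitochondrial genome had a negative difference, with medians of 0.12 (CETPtg) and -0.04 (APPtg/CETPtg), and 9 had opposite signs. Their level was 0.35, 0.04, 0.23 and 0.09 in mice A to D and -0.03, 0.07, 0.07 and 0.07 in mice S1 to S4. It was -0.20 to 0.03 in mice S5 to S8 and -0.19 to -0.04 in mice E to H. Mice A and C were the 2 highest of the series, and B lay within the range of its vehicle group. Without A the median difference went from -0.16 to -0.09. The 86 respiratory chain subunits encoded in the nucleus had medians of 0.03 (CETPtg) and -0.05 (APPtg/CETPtg), with a negative difference for 76 of them.

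The 89 proteins of the cytosolic ribosome had medians of 0.04 (CETPtg) and -0.02 (APPtg/CETPtg), and 82 of them had a negative difference. The 80 proteins of the mitochondrial ribosome had medians of 0.04 (CETPtg) and -0.02 (APPtg/CETPtg), with 62 negative. These families also differed between the genotypes without evacetrapib: vehicle-treated APPtg/CETPtg mice lay above all vehicle-treated CETPtg mice for 75 cytosolic ribosomal proteins, 35 mitochondrial ones and 61 respiratory chain subunits (9.61% of all genes tested). Many of these genes have near-identical processed pseudogenes elsewhere in the genome, so their counts are uncertain. They also have short transcripts, and transcript length itself was related to the difference. With the genes split by length into 5 equal bins, the median difference in the shortest bin was -0.05, and in the longest 0.03. With the trend on GC content and length removed, the median differences were -0.05 for cytosolic and -0.06 for mitochondrial ribosomal proteins, and -0.06 for the respiratory chain, against -0.06, -0.06 and -0.09 before. That correction also moved the median over all genes from -0.00112 to -0.0186, so relative to all genes the lists moved closer to 0.

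Genes of sterol synthesis and of sterol transport showed small opposite medians. The 26 genes of cholesterol and isoprenoid synthesis had medians of 0.02 (CETPtg) and -0.06 (APPtg/CETPtg), with opposite signs for 21 and a negative difference for 21, and 0 had an unadjusted p below 0.05 for a lower and 0 for a higher difference. Their level was 0.14, 0.17, 0.02 and 0.02 in mice S5 to S8, where S5 and S6 were the 2 highest of the series, and -0.06 to 0.10 in mice E to H, so the groups overlapped. In the opposite direction, the 25 genes of lipoproteins and cholesterol efflux had medians of -0.05 (CETPtg) and 0.03 (APPtg/CETPtg), with opposite signs for 12 (49.9% of all genes tested), a positive difference for 19 and an unadjusted p below 0.05 for 4 (3.65% of all genes were higher at that level). Abca1, the transporter that loads cholesterol onto apolipoproteins and a gene picked with its values known, was 1 of the 34 genes with an unadjusted p below 0.05 in both genotypes and opposite signs. Its log2 fold changes were -0.23 (CETPtg) and 0.21 (APPtg/CETPtg), and the adjusted p of the difference was 0.703 (edgeR quasi-likelihood, Benjamini-Hochberg).

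Pan-neuronal and cortical excitatory markers had small positive medians in CETPtg and small negative medians in APPtg/CETPtg mice. The 16 pan-neuronal genes, which include Thy1, had medians of 0.06 (CETPtg) and -0.05 (APPtg/CETPtg), opposite signs for 13 (49.9% of all genes tested) and an unadjusted p below 0.05 for 5, all of them lower (3.18%). The 19 genes of excitatory neurons of the cortex had medians of 0.09 (CETPtg) and -0.03 (APPtg/CETPtg), but opposite signs for only 10, and their median difference went from -0.18 to -0.10 without S6. Neurod6, a transcription factor of cortical projection neurons, had 40.0, 37.3, 41.8 and 38.3 CPM in mice S1 to S4 and 50.5, 41.0, 41.2 and 45.04 in mice A to D. It had 42.1, 47.7, 42.0 and 46.7 CPM in mice S5 to S8 and 39.6, 42.2, 40.2 and 40.4 in mice E to H. Mice A and D were above their vehicle group, and E, G and H below theirs, with overlap in both genotypes. Its difference was -0.32 (standard error 0.09, adjusted p 0.703, edgeR quasi-likelihood, Benjamini-Hochberg). Stmn2, which regulates microtubules in growing axons, had log2 fold changes of 0.10 and -0.13. Nrgn, a calmodulin-binding protein of dendrites and chosen after its values were seen, was the most abundant of the 34 opposed genes with a mean of 1271 CPM, and its log2 fold changes were 0.19 and -0.18.

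Interneuron markers had the reverse medians, -0.13 (CETPtg) and 0.04 (APPtg/CETPtg), and opposite signs for 20 of 26 genes (49.9% of all genes tested), but the difference split evenly by gene, with a positive difference for 14 and a negative one for 12 (4 and 3 at an unadjusted p below 0.05). Their median difference of 0.08 was 0.03 without A, 0.04 without S8, 0.12 without D and 0.13 without F. Mice S6, D, E and G had the 4 highest interneuron levels (0.16, 0.12, 0.11 and 0.10), and the same 4 mice were the highest for the olfactory bulb genes given below, which share Reln with this list. S5, S8 and C were the lowest (-0.18, -0.13 and -0.13) and also low in olfactory bulb genes, whose part in the interneuron medians was not tested. Ionotropic glutamate receptors had medians of -0.02 (CETPtg) and 0.06 (APPtg/CETPtg) over 18 genes. Astrocytes had medians of -0.02 (CETPtg) and 0.03 (APPtg/CETPtg), with a mean level of 0.03 with vehicle and 0.02 with evacetrapib in CETPtg mice, and homeostatic microglia of -0.04 (CETPtg) and 0.06 (APPtg/CETPtg), with a positive difference for 17 of 21 genes and a median difference of 0.09 (0.04 without S7, 0.05 without G, 0.06 without S5 and 0.13 without S8). Cx3cr1, the fractalkine receptor of microglia, had 46.7, 46.3, 48.6 and 58.8 CPM in mice S5 to S8 and 54.2, 56.0, 55.9 and 56.5 in mice E to H, where S8 was the highest of both groups, and 48.1 to 55.9 with vehicle and 47.8 to 53.1 with evacetrapib in CETPtg mice. Myelin genes had medians of 0.03 (CETPtg) and -0.03 (APPtg/CETPtg), and the signs were no longer opposite without mouse F or S8. Oligodendrocyte precursors had medians of -0.02 (CETPtg) and 0.03 (APPtg/CETPtg), whose signs were no longer opposite with counts thinned to the smallest total, nor without D, G or S4.

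Interferon-stimulated genes, which cells switch on against viruses and nucleic acids, were lower with evacetrapib in CETPtg and higher in APPtg/CETPtg mice by their medians, -0.06 and 0.48. The difference was positive for 24 of 26 genes, 17 had opposite signs (49.9% of all genes tested), and 4 had an unadjusted p below 0.05, all higher (3.65%). The level of the list was -0.68, 0.52, -0.28 and 0.14 in mice S5 to S8 and 0.38, 0.67, 0.85 and -0.33 in mice E to H. It was 0.12, -0.17, -0.11 and -0.27 in mice S1 to S4 and -0.23, 0.44, -0.47 and -0.57 in mice A to D. In each genotype the groups overlapped, as S6 and B were high and S5 and H low for their groups. The median difference lay between 0.26 without S5 and 0.71 without B, with 0.27 without G, 0.65 without H and 0.70 without S6, and without D the signs were the same in both genotypes. Ifit3, an interferon-induced protein of the IFIT family, had 8.48, 21.9, 10.5 and 13.4 CPM in mice S5 to S8 and 16.6, 24.7, 23.4 and 9.19 in mice E to H, with overlap, and 15.4, 12.4, 13.6 and 13.7 in mice S1 to S4 and 8.12, 17.7, 8.82 and 7.75 in mice A to D. Its log2 fold changes were -0.39 and 0.45, and the adjusted p of the difference was 0.727 (edgeR quasi-likelihood, Benjamini-Hochberg).

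Genes of MHC class I, which present peptides to T cells, had medians of -0.02 (CETPtg) and 0.36 (APPtg/CETPtg) over 12 genes, and all 12 had a positive difference. These genes share reads with near-identical copies, so their counts are uncertain. Mouse G stood apart with a level of 0.95, against 0.13, 0.14 and -0.08 in mice E, F and H, and without G the median difference went from 0.39 to 0.13. The signs of the medians were the same in both genotypes without A, C or S2. Nlrc5, the transcriptional activator of this class, had 2.27, 2.52, 6.18 and 1.90 CPM in mice E to H and 1.59 to 2.34 in mice S5 to S8, so its higher mean with evacetrapib rested on G.

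Fibroblasts of the meninges and vessels formed a class whose level separated the APPtg/CETPtg groups upward. The 23 genes had medians of -0.05 (CETPtg) and 0.30 (APPtg/CETPtg), the difference was positive for 22 of them with a median of 0.35, and 5 had an unadjusted p below 0.05, all higher (3.65% of all genes tested). With 1 mouse left out the median difference lay between 0.28 and 0.40, although the small median in CETPtg mice changed sign without S1 or S3. The level was -0.36, -0.25, -0.06 and -0.05 in mice S5 to S8 and 0.20, 0.07, 0.18 and 0.03 in mice E to H, without overlap. By single genes, evacetrapib-treated APPtg/CETPtg mice lay above all vehicle-treated ones for only 2 of the 23 (1.97% of all genes tested). They lay below them for 0 (2.32%). In CETPtg mice the level did not separate the groups. The level there was 0.10, -0.06, 0.21 and -0.08 in mice S1 to S4 and -0.09, 0.01, -0.03 and 0.18 in mice A to D, where the groups overlapped. Mouse S5 was the lowest and S3 the highest of the 16. The part of meningeal tissue, which a dissected sample can hold in varying amounts, in this difference was not tested. Bgn, a small proteoglycan that binds collagen, had 10.8, 15.5, 12.8 and 13.6 CPM in mice S5 to S8 and 19.8, 14.0, 18.4 and 18.3 in mice E to H, with F below S6, and its difference was 0.52 (standard error 0.16, adjusted p 0.703, edgeR quasi-likelihood, Benjamini-Hochberg). Col1a2, a chain of type I collagen, had 14.3, 18.4, 18.6 and 18.6 CPM in mice S5 to S8 and 25.7, 22.6, 22.0 and 22.2 in mice E to H, without overlap.

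The 44 collagens as a family had medians of -0.01 (CETPtg) and 0.10 (APPtg/CETPtg), with a positive difference for 30 and a median difference of 0.13 (0.08 without G, 0.20 without E, 0.20 without F and 0.20 without S8). Their median in CETPtg mice became positive with the trend on GC content and length removed, and also without D, S2 or S3. Pericytes, the contractile cells around capillaries, had medians of 0.07 (CETPtg) and 0.18 (APPtg/CETPtg), so the difference was of degree.

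**Figure D3:**
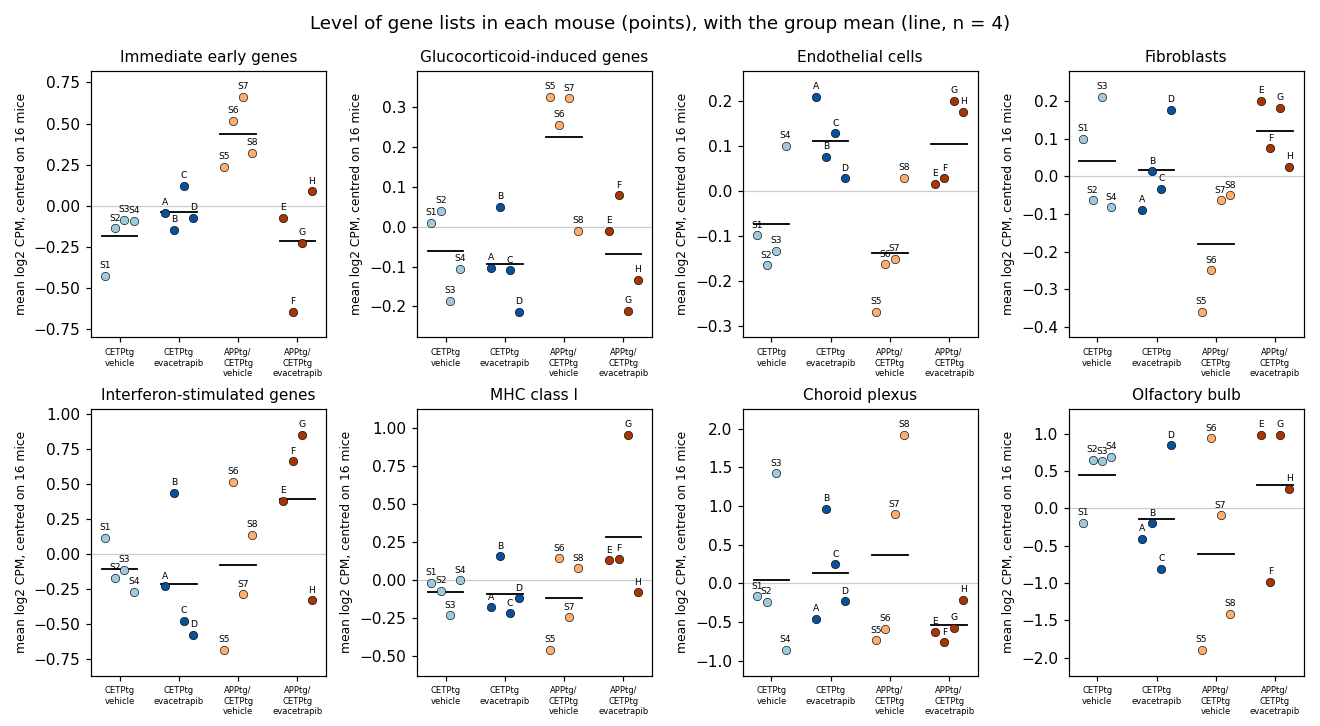
Level of 8 gene lists in each mouse (points with the mouse's name), as the mean over members of log2 CPM centred on the 16 mice, with the mean of each group (line, n = 4). Fibroblast genes and immediate early genes separate vehicle- from evacetrapib-treated APPtg/CETPtg mice, in opposite directions, while choroid plexus and olfactory bulb genes spread widely within groups.

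Some classes with large medians are markers of regions or tissues that a dissected sample can hold in varying amounts. The olfactory bulb genes (16 of 16 tested) had medians of -0.55 (CETPtg) and 0.70 (APPtg/CETPtg), with opposite signs for 15. Their summed level was 485, 602, 596 and 606 CPM in mice S1 to S4 and 455, 439.7, 401 and 653 in mice A to D. It was 340.1, 741, 459 and 382 CPM in mice S5 to S8 and 673, 431, 686 and 527 in mice E to H. Mice D, S6, E and G were the 4 highest and S5, S8, C and F the 4 lowest, so each group but the vehicle-treated CETPtg mice held both kinds, and the groups of each genotype overlapped. The median difference went from 1.36 to 2.11 without S6 and to 1.02 without S8, and its lowest value under the alternatives was 0.73. The most abundant member was Nrn1, which other neurons express as well, and S100a5, a calcium-binding protein of olfactory neurons, was at 0 in S5. The part of tissue sampling in this difference was not tested.

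Markers of the choroid plexus epithelium, which secretes cerebrospinal fluid, had medians of -0.10 (CETPtg) and -1.16 (APPtg/CETPtg) (17 of 18 genes tested). Ttr, the thyroxine carrier that this epithelium secretes, had 1.08, 1.56, 138 and 0.705 CPM in mice S1 to S4 and 4.61, 99.7, 22.6 and 2.19 in mice A to D. It had 1.59, 2.704, 97.3 and 427 CPM in mice S5 to S8 and 2.15, 1.502, 2.35 and 10.6 in mice E to H. Mice S3, B, S7 and S8 were far above the others, and the summed level of the list was 208, 187, 377 and 842 CPM in mice S5 to S8 and 217, 211, 222 and 225 in mice E to H, with Enpp2, which other cells express too, as the most abundant member. In CETPtg mice the sums were 244, 230.1, 464 and 235 CPM with vehicle and 269.6, 389.5, 276 and 218 with evacetrapib. The potassium channel subunit Kcne2 was at 0 in S5, G and H, and the tight junction protein Cldn2 in G, and the part of choroid plexus tissue in the list's own difference was not tested. The median difference of -1.13 was -1.75 without S3 and -0.30 without S8. Its highest value under the alternatives was -0.0008. The medians no longer had the same sign in both genotypes without A or S3. In CETPtg mice the mean level of the list was 0.04 with vehicle and 0.13 with evacetrapib, unlike its negative median. Without S3, B, S7 and S8 together, which were chosen by this level after seeing the data, the median difference of the immediate early genes was -0.80.

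Hypothalamic neuropeptide genes (15 of 22 tested) had medians of -0.40 (CETPtg) and 0.06 (APPtg/CETPtg), with opposite signs for 7 of 15. Their median difference of 0.35 was 0.07 without S3, 0.11 without H, 0.23 without A and 0.51 without S7. Its highest value under the alternatives was 0.59. The summed level of these genes was 523, 358, 427 and 424 CPM in mice E to H, 356, 344, 497 and 352 in S5 to S8, 269, 374, 315 and 391 in A to D and 405, 422, 558 and 341 in S1 to S4, with Hap1 as the most abundant member and the transcription factor Otp at 0 in A and E. Pomc, a precursor of hormones made in the hypothalamus and the pituitary, had 148, 1.71, 1.52 and 1.90 CPM in mice E to H and 1.35 to 3.20 in S5 to S8, and 2.19, 9.74, 4.47 and 1.30 in S1 to S4 and 0.971, 0.989, 1.70 and 1.22 in A to D. Its log2 fold change of 4.31 in APPtg/CETPtg mice rested on mouse E, and that of -1.89 in CETPtg mice came with high values in S2 and S3. Of the pituitary list, 2 of 14 genes passed the filter, Pomc and the more abundant Chga, which neurons express too. Their summed level was 353, 215, 211 and 226 CPM in mice E to H, 245, 306, 206 and 220.3 in S5 to S8, 189.6, 210.2, 211 and 183 in A to D and 205, 207, 203 and 193 in S1 to S4. The parts of hypothalamic and pituitary tissue in the result were not tested.

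Blood cell genes, 6 of 10 tested and mostly haemoglobins that share reads, had medians of 0.48 (CETPtg) and -0.42 (APPtg/CETPtg). Their summed level was 292, 117, 93.0 and 153 CPM in mice A to D and 92.4, 155, 112 and 159 in S1 to S4. It was 117, 97.1, 142 and 231 CPM in mice S5 to S8 and 137, 70.0, 121 and 127 in E to H. Mouse A was highest and F lowest, Hbb-bs was the most abundant member, and without A the difference went from -0.91 to -0.35 and the signs were no longer opposite, without S8 it was -0.51, and no member was at 0 in any mouse. The part of residual blood in the result was not tested.

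Among single genes, 9 had groups that did not overlap in either genotype and separated in opposite directions. Of these, Gadd45gip1, Anapc1 and Brd3os also had an unadjusted p below 0.05 in both genotypes (edgeR quasi-likelihood), Gm4793 had it in neither, and the others only in APPtg/CETPtg mice. Slc4a4 (ENSMUSG00000060961, chr5:88886818-89239653), the sodium bicarbonate cotransporter of astrocytes, had 200.2, 203, 205 and 209.7 CPM in mice S1 to S4 and 187, 186, 196 and 193 in mice A to D. It had 134, 144, 147 and 141 CPM in mice S5 to S8 and 164, 148, 184 and 172 in mice E to H. It was lower with evacetrapib in CETPtg and higher in APPtg/CETPtg mice, and all 8 CETPtg mice were above all 8 APPtg/CETPtg mice. Its log2 fold changes were -0.10 and 0.24, and the difference of 0.34 (standard error 0.07) had an adjusted p of 0.483 (edgeR quasi-likelihood, Benjamini-Hochberg). Anapc1 (ENSMUSG00000014355, chr2:128610104-128687391), the largest subunit of the anaphase-promoting complex, had 99.4, 96.8, 98.3 and 97.8 CPM in mice S1 to S4 and 92.9, 90.1, 88.8 and 91.4 in mice A to D. It had 84.9, 81.1, 84.0 and 81.4 CPM in mice S5 to S8 and 87.4, 85.6, 93.6 and 87.2 in mice E to H. The vehicle groups lay far apart and the evacetrapib groups overlapped between them, since mouse G was above every CETPtg mouse with evacetrapib.

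Chd8 (ENSMUSG00000053754, chr14:52198151-52257780), a chromatin remodeller, had 129, 124, 125 and 129 CPM in mice S1 to S4 and 118, 119.5, 124 and 122 in mice A to D. It had 114, 111, 113 and 117 CPM in mice S5 to S8 and 121, 125, 125 and 119.9 in mice E to H, where each evacetrapib-treated mouse lay between the vehicle groups or within the range of the vehicle-treated CETPtg mice. Dcaf7, an adaptor protein of WD repeats, had log2 fold changes of -0.04 and 0.13 and moved the same way as Slc4a4, Anapc1 and Chd8, as did Gm4793, an antisense transcript with -0.28 and 0.31 whose counts depend on a strand setting that the study does not state. In the other direction, Gadd45gip1 (ENSMUSG00000033751, chr8:84831522-84835482), a protein of the mitochondrial ribosome, had 27.1, 31.1, 30.9 and 29.3 CPM in mice S1 to S4 and 31.1, 33.9, 31.7 and 31.3 in mice A to D. It had 36.0, 35.3, 36.7 and 34.6 CPM in mice S5 to S8 and 30.3, 32.0, 31.7 and 30.7 in mice E to H. It was higher with evacetrapib in CETPtg mice by a narrow margin between S2 and A and lower in APPtg/CETPtg mice by a wide one. Exog, a mitochondrial nuclease, Ank, a membrane protein that exports pyrophosphate and its precursors, and Brd3os, a transcript opposite Brd3 whose counts may hold reads of the overlapping gene, moved like Gadd45gip1, with differences of -0.30, -0.18 and -0.22. The adjusted p of these 9 genes lay between 0.483 and 0.703 in the same edgeR test, and their log2 fold changes within a genotype were under 0.4 in size.

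**Figure D4:**
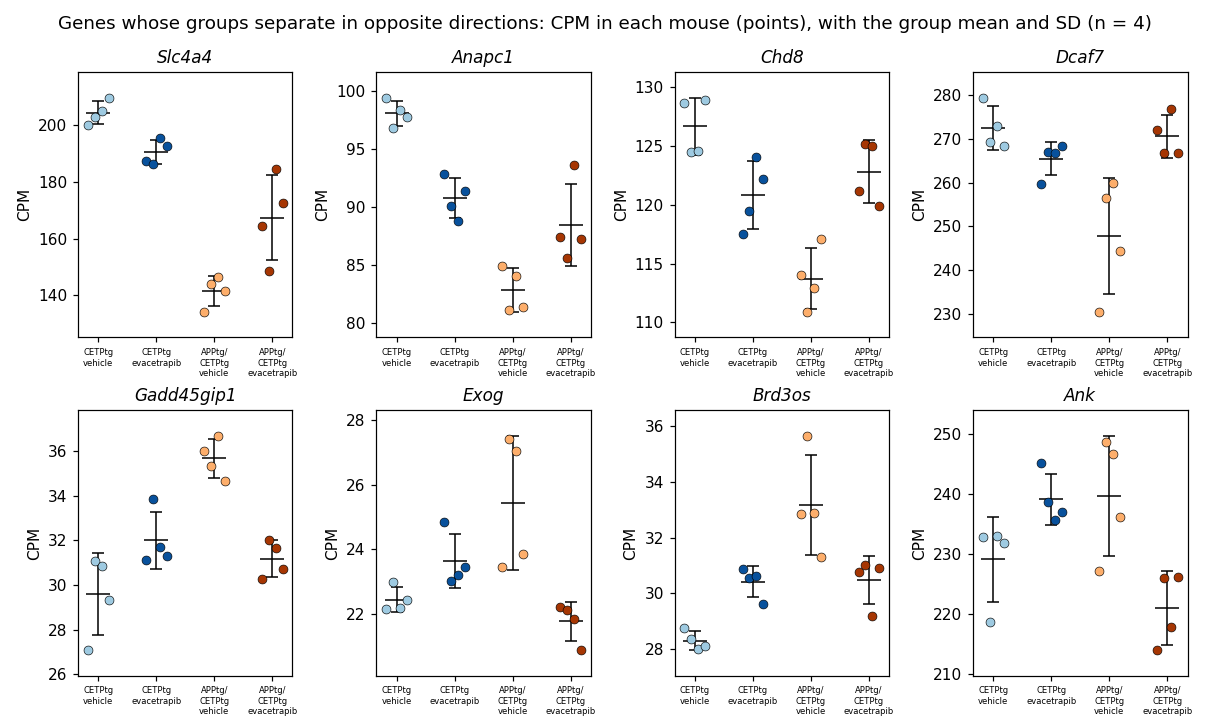
CPM of 8 of the 9 genes that separated in opposite directions, in each of the 16 mice (points), with the mean and SD of each group (n = 4), on axes that do not start at 0. Slc4a4, Anapc1, Chd8 and Dcaf7 are lower with evacetrapib in CETPtg and higher in APPtg/CETPtg mice, and Gadd45gip1, Exog, Brd3os and Ank are the reverse.

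The 34 genes with opposite signs and an unadjusted p below 0.05 in each genotype did not form a class of the lists, since 31 were in none of them. Of the 34, 22 were higher and 12 lower with evacetrapib in APPtg/CETPtg mice, and the median size on the log2 scale was 0.27 (CETPtg) and 0.28 (APPtg/CETPtg). Their number was 86 without D, 66 without S6, 64 without F, 18 without S2 and 15 without G. Svep1, a large adhesion protein of the extracellular matrix, had 1.80, 1.96, 3.26 and 3.24 CPM in mice S1 to S4 and 1.74, 1.56, 1.22 and 2.19 in mice A to D. It had 0.998, 1.40, 1.60 and 0.934 CPM in mice S5 to S8 and 2.08, 1.79, 2.90 and 2.32 in mice E to H, separate in APPtg/CETPtg mice and overlapping in CETPtg mice. Its difference was 1.51 (standard error 0.34, adjusted p 0.703, edgeR quasi-likelihood, Benjamini-Hochberg). Vipr1, a receptor for vasoactive intestinal peptide, had log2 fold changes of 0.22 and -0.26, and the predicted gene Gm10130 of -0.45 and 0.67.

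Of the genes with few reads, Xlr3b, an X-linked gene with near-identical neighbours, had 0.420, 2.53, 1.16 and 1.76 CPM in mice S1 to S4 and 5.71, 2.82, 4.99 and 4.26 in mice A to D. It had 5.22, 1.94, 1.46 and 1.36 CPM in mice S5 to S8, where S5 was far above the others, and 0.717, 1.06, 0.553 and 1.81 in mice E to H. Gm18588, a processed pseudogene whose reads may come from its parent gene, had 0.210, 0.188, 0.368 and 0.211 CPM in mice S1 to S4 and 0.618, 0.779, 0.691 and 0.681 in mice A to D, without overlap, and 0.360 to 0.509 with vehicle and 0.264 to 0.464 with evacetrapib in APPtg/CETPtg mice, with overlap. Both values are uncertain for that reason. Gm19439, a transcript of unknown function, had 11.9, 11.2, 11.2 and 6.41 CPM in mice S5 to S8 and 5.66, 5.12, 3.60 and 4.73 in mice E to H, without overlap, and its log2 fold changes were -0.13 (CETPtg) and -1.07 (APPtg/CETPtg).

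Other classes had medians of the same sign in both genotypes. Endothelial markers had medians of 0.20 (CETPtg) and 0.24 (APPtg/CETPtg) over 29 genes, of which 2 had opposite signs, and arterial smooth muscle had 0.15 (CETPtg) and 0.18 (APPtg/CETPtg). The difference of the endothelial list lay between -0.02 and 0.10 with 1 mouse left out, and its highest value under the alternatives was 0.18. That of arterial smooth muscle, 0.04, lay between -0.06 and 0.30 under the alternatives. The 15 clock genes with E-box or D-box elements had medians of -0.14 (CETPtg) and -0.24 (APPtg/CETPtg), and 0 had opposite signs, while the 5 clock genes of the opposite phase had 0.27 (CETPtg) and 0.12 (APPtg/CETPtg). The 24 genes that the study named for treatment had medians of 0.25 (CETPtg) and 0.30 (APPtg/CETPtg) and 0 with opposite signs, which is not independent evidence because they were chosen on these mice. Ligands and receptors of the VEGF family, which guide vessel growth, had medians of 0.03 (CETPtg) and 0.11 (APPtg/CETPtg). Reactive astrocytes had medians of 0.03 (CETPtg) and 0.15 (APPtg/CETPtg), but their mean level was lower with evacetrapib in CETPtg mice (-0.06 with vehicle, -0.13 with evacetrapib) and higher in APPtg/CETPtg mice (-0.03 and 0.21). The medians no longer had the same sign without C, and the median difference of 0.12 was 0.02 without G, 0.08 without C, 0.20 without H and 0.19 without S6.

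Regional neurons gave medians near 0 or of changing sign. Striatal medium spiny neurons had medians of -0.02 (CETPtg) and -0.12 (APPtg/CETPtg), hippocampal neurons 0.01 (CETPtg) and -0.05 (APPtg/CETPtg), thalamic neurons -0.02 (CETPtg) and 0.02 (APPtg/CETPtg) and cerebellar neurons -0.04 (CETPtg) and -0.04 (APPtg/CETPtg). The signs of the hippocampal list changed with total counts alone and with thinned counts, those of the thalamic list with limma-voom and thinned counts, and those of the cerebellar list with thinned counts. With single mice left out they changed for hippocampal neurons without A, B, E, S2, S7 or S8, for thalamic neurons without D or S5, for cerebellar neurons without E, F, S6 or S7, and for striatal neurons without A, D or S2. Monoamine neurons of the midbrain and hindbrain had -0.26 (CETPtg) and -0.13 (APPtg/CETPtg), which no longer had the same sign without E or S7. Their median difference of 0.03 lay between -0.13 and 0.17 with 1 mouse left out. Ependymal cells, which line the ventricles, had 0.02 (CETPtg) and -0.13 (APPtg/CETPtg), with no opposite signs under total counts alone or without B, C, F, S2 or S4. The mean levels of the monoamine and cerebellar lists were lower with evacetrapib in CETPtg and higher in APPtg/CETPtg mice, unlike their medians. Slc6a3, the dopamine transporter, had 0.931, 2.04, 4.42 and 1.55 CPM in mice S1 to S4 and 0.551, 0.630, 0.425 and 1.42 in mice A to D, and 0.363, 1.49, 0.837 and 0.359 in mice S5 to S8 and 1.77, 0.731, 1.94 and 1.53 in mice E to H. The groups overlapped in both genotypes, S3 was the highest, and the difference was 2.66 (adjusted p 0.703, edgeR quasi-likelihood, Benjamini-Hochberg).

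Of the other families and pathways, plaque-associated microglia had medians of -0.02 (CETPtg) and -0.01 (APPtg/CETPtg), complement of -0.08 (CETPtg) and 0.06 (APPtg/CETPtg), the APP family with its secretases of -0.01 (CETPtg) and -0.02 (APPtg/CETPtg), and GABA-A receptor subunits of -0.01 (CETPtg) and -0.01 (APPtg/CETPtg). Voltage-gated channels had medians of 0.06 (CETPtg) and 0.01 (APPtg/CETPtg), genes of the active zone and synaptic vesicles of 0.07 (CETPtg) and 0.00 (APPtg/CETPtg) and postsynaptic scaffolds of 0.06 (CETPtg) and 0.05 (APPtg/CETPtg). Hippo pathway and YAP target genes, which include Ccn1, had 0.01 (CETPtg) and 0.01 (APPtg/CETPtg), solute carriers -0.01 (CETPtg) and 0.01 (APPtg/CETPtg), zinc finger genes -0.02 (CETPtg) and 0.01 (APPtg/CETPtg) and clustered protocadherins -0.11 (CETPtg) and -0.01 (APPtg/CETPtg). Histones, whose copies share reads, had 0.03 (CETPtg) and 0.06 (APPtg/CETPtg), glutathione S-transferases -0.05 (CETPtg) and -0.04 (APPtg/CETPtg) and keratins -0.04 (CETPtg) and -0.11 (APPtg/CETPtg). Apart from the protocadherins and keratins, these medians were within 0.1 of 0 in both genotypes. The small signs of plaque-associated microglia, complement, GABA-A receptors, voltage-gated channels, the active zone, the APP family, the Hippo pathway, zinc finger genes, solute carriers and protocadherins changed under at least 1 of the 6 other scalings.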

How the data were processed

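The values are raw counts of reads per gene, deposited by the authors, who per the submitters' processing notes trimmed reads with Trimmomatic 0.39, aligned them to mm10 with STAR 2.7.8a, marked duplicates with Picard 2.0.1 and counted with HTSeq, whose version, annotation and strand setting are not given. The table held 55487 gene identifiers, of which 55227 were found in GENCODE M21, and 0 value columns were left without a mouse. Genes with 10 or more counts in 4 or more mice were kept, scaled by TMM and fitted with edgeR 4.0.16 (R 4.3.3) as 4 group means, and contrasts were tested by quasi-likelihood, with p values adjusted by Benjamini-Hochberg across these genes. A gene was called at an adjusted p up to 0.05 and a change of 5% or more. Levels of lists average log2 CPM (prior count 2) over members, centred on the 16 mice.

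Named genes were the 12 with the smallest p for the difference, the genes with at least 1 CPM that crossed without overlap, those called within a genotype, up to 6 members of each list by smallest p, and Thy1 as a check of genotype. The most abundant members of lists, and members at 0, are named as such, and others were chosen after their values were seen, as the text says for each. The members of lists and the lists themselves were chosen with earlier results of these data known. Alternatives were other scalings, DESeq2 1.42.0, limma-voom 3.58.1, other filters and thresholds, thinned counts, removal of each mouse's trend on GC content and transcript length, and leaving out each mouse. Promoter windows come from RefSeq on GRCm38.p6, and gene positions from GENCODE M21 on GRCm38.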

Additional observations from a re-analysis of the deposited data

Results flagged for a closer look

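In 16 of 232 groups of 4 mice, a mouse lay far from the other 3, by the gap to its nearest neighbour as a share of the range of the group. About 1 in 20 groups is expected to pass by chance. The share is given first, with the value of the mouse (log2 CPM for genes, centred log2 level for lists) in brackets.

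Among vehicle-treated CETPtg mice, the share was 0.836 (value -1.22) for Gm18588 and 0.971 (value 0.05) for Gm10130 in S3, and 0.928 (value 7.77) for Ank in S2. In S1 it was 0.937 (value -0.19) for the olfactory bulb list, 0.848 (value -0.43) for immediate early genes and 0.990 (value -0.03) for mitochondrial transcripts. Among evacetrapib-treated CETPtg mice, D had 0.913 (value 4.39) for Arl4d and 0.860 (value 0.01) for oligodendrocyte precursors.

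Among vehicle-treated APPtg/CETPtg mice, S8 had 0.835 for total counts (55453789 counts) and 0.900 (value 2.69) for Gm19439, and S5 had 0.871 (value -0.16) for oligodendrocyte precursors. Among evacetrapib-treated APPtg/CETPtg mice, the share was 0.830 (value 2.68) for Npas4 and 0.943 (value -0.98) for blood cells in F, 0.868 (value 4.87) for Brd3os in G, 0.842 (value 0.07) for striatal neurons in H and 0.938 (value 2.90) for the pituitary list in E.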

How the results depend on the processing

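The difference between the genotypes was called for 0 genes, and for 2 with DESeq2, 29 without the filter on low counts, 2 with the plate row as a block (added after seeing the data), 1271 at an unadjusted p below 0.05 and 0 to 1 with each mouse left out. CETPtg mice had 0 calls, 9 without the filter, 1079 at an unadjusted p below 0.05 and 0 with each mouse left out. APPtg/CETPtg mice had 8 calls, 73 with DESeq2, 88 without the filter, 5 with the header numbers as a block and 19 without the 4 mice highest in choroid plexus genes (both added after seeing the data), 2 from the 8 mice of the genotype alone, 1677 at an unadjusted p below 0.05 and 0 (without G) to 14 (without S8) with each mouse left out. Opposed genes numbered 34, with 95 without the filter, 20 without those 4 mice, and 15 (without G) to 86 (without D) with each mouse left out. Of the 29 genes called without the filter, 27 were also tested with it. Unadjusted p values admit more genes by construction, and for the other changes, that without the filter included, the cause was not tested. All 572 alternative values of 22 named genes, and 815 of 875 values of 35 list medians, kept the sign of the difference. The 22 genes were those chosen by smallest p, by crossing groups or by calls, so their stable signs follow largely from that choice. The correlation between the genotypes lay between -0.0736 and 0.0613 with each mouse left out. Mice with the same header number in different groups correlated at -0.203 to 0.173 (median -0.006, 24 pairs), so the numbers were not used as pairs. With 4 mice per group and the totals given above, small differences and genes with few reads could not be resolved.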
